A study of Mus musculus with 6 samples.

Results

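Transcripts of 10 cytokine genes, taken from the interleukin-1 (IL-1) family and from the colony-stimulating and related epithelial cytokines, were followed in 4T1 cells that express METTL7A1. The 10 genes (Il1a, Il1b, Il1rn, Il33, Il18, Csf1, Csf2, Csf3, Lif and Tslp) were chosen by gene name among the 48587 genes of the count table, at a time when their fold changes in these same libraries were already known, and all 10 were found. Their differences between the groups are therefore given as a description, and the number of them that passed the test supports nothing by itself. 4T1 cells come from a mouse mammary carcinoma and have mesenchymal traits, and both groups were grown in medium with serum. METTL7A1 is a putative methyltransferase. The METTL7A1 group comprised 3 libraries of cells stably transfected, with a lipid reagent and under G418 selection, with full-length Mettl7a1 cDNA (FLAG-tagged in the study's methods) in the pBICEP-CMV-2 vector, in which a viral CMV promoter drives the insert. The mock group comprised 3 libraries of 4T1 cells labelled mock, a name the study uses for cells carrying the empty vector. Whether either group was a single clone or a pool of transfected cells was not given in the sources used here, so a difference between the transfectants cannot be told apart from a difference between the cells from which they were grown. No treatment besides transfection and selection was labelled.

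The 6 libraries held 18386780 to 28459338 counts, and the biological coefficient of variation across genes was 0.0915. Mettl7a1 itself had 6355, 11358 and 10398 counts in the METTL7A1 libraries and 30, 30 and 29 in the mock libraries, as labelled. All 7 epithelial markers were above the abundance filter. Epcam (2063 to 4280 counts) and Krt8 (6557 to 12647 counts) were not called, whereas Krt14 was lower in METTL7A1 cells (log2 -1.94, SE 0.09, edgeR adjusted p = 7.54e-08) and the claudins Cldn3 (log2 1.49, SE 0.15) and Cldn4 (log2 1.19, SE 0.12) were higher. Of the leukocyte markers, Cd3e was at 0 in all libraries, Ptprc did not exceed 8 counts, and Adgre1, Itgam, Lyz2 and Ly6g did not exceed 3. The summed level of the leukocyte list was 6.12 to 6.84 cpm (reads scaled by library size and TMM factor) in mock and 14.9 to 17.3 cpm in METTL7A1 libraries. Both tested markers of that list were called higher, Cd68 (log2 1.23, SE 0.14, edgeR adjusted p = 5.05e-05) and Csf1r (log2 1.68, SE 0.27, edgeR adjusted p = 0.000506). Of all tested genes, 21.1% were called higher and 21% lower. Csf1r passed the filter through the METTL7A1 libraries alone, so nothing is read from this count. S100a8, under the filter, had 4, 3 and 1 counts in mock and 14, 22 and 20 in METTL7A1 libraries. Cd68, Csf1r and S100a8 thus moved in the same direction as most of the cytokines, and their part in the results was not tested. AY036118 and Gm42418, a pair of overlapping genes of the ribosomal repeat, varied widely between libraries, AY036118 from 4970 to 146000 cpm with the most in mock replicate 1, and Gm42418 was lower in METTL7A1 cells (log2 -1.03, SE 0.27, edgeR adjusted p = 0.0107). With mock replicate 1 left out and the filter reapplied, 7 of the cytokines and 4251 genes in all were called. With all libraries these numbers were 7 and 5537. The part of that library in the results was not tested. In bulk RNA, fewer cells of a type and less RNA per cell cannot be told apart.

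IL-1α and IL-1β, encoded by Il1a and Il1b, are inflammatory ligands that bind the same receptor, formed by IL1R1 and its accessory chain IL1RAP, whereas IL-1Ra, encoded by Il1rn, occupies that receptor without signalling. IL-18 and IL-33 are relatives with receptors of their own; IL-1β and IL-18 are made as precursors that inflammatory caspases cut, whereas IL-1α and IL-33 can act as alarmins released from damaged epithelial cells. M-CSF (Csf1), GM-CSF (Csf2) and G-CSF (Csf3) drive the production and survival of macrophages and granulocytes, LIF signals through LIFR and gp130, and TSLP is an epithelial cytokine that acts on dendritic and other immune cells. Mammary carcinomas are known to use several of these factors to recruit and shape myeloid cells.

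Il1a and Il1b lie on chromosome 2 in the same orientation. With Csf2, they are the called members with a log2 difference over 1 whose RefSeq promoter adjoins or lies near the start given in the count table, and their promoters are shown for that reason. The 200 bases upstream of the start site in each (RefSeq, build GRCm38.p6) are printed 5′ to 3′, with capitals marking matches to TATAAA (the TATA box), TGANTCA (AP-1) and TTGCNNAA (C/EBP), searched on both strands, with no match overlapping another. NF-kB and CK-1 consensus motifs were searched as well. In all, 8 of the 10 members matched a RefSeq promoter.
Il1a promoter, chr2:129309973-129310172, minus strand: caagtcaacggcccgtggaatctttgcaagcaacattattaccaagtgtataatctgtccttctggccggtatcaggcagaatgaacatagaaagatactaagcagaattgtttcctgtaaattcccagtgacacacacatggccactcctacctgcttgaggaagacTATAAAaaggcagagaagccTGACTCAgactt
Il1b promoter, chr2:129371140-129371339, minus strand: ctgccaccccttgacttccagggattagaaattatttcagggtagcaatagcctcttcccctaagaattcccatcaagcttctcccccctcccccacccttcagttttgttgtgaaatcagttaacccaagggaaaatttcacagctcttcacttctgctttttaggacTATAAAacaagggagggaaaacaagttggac
Csf2 promoter, chr11:54249900-54250099, minus strand: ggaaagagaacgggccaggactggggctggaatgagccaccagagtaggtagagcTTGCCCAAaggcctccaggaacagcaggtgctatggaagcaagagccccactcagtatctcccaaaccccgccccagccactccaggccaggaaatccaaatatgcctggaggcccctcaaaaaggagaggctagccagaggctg

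The TATA box ended 27 bases upstream of the Il1a start and 26 upstream of the Il1b start, at nearly the same place in both genes (-32 to -27 and -31 to -26 from the start). Il1a alone of the pair also held an AP-1 match, at -12 to -6, and Csf2 held a C/EBP match at -145 to -138. A site of the NF-kB consensus was found at -154 to -145 in Csf1 and at -178 to -169 in Lif, and in neither IL-1 ligand window. Among 32851 RefSeq promoter windows of the same length, 9.96% held a TATA match, 5.48% an AP-1 match, 7.47% a C/EBP match and 6.07% an NF-kB match. None of the 8 members with a promoter window held a CK-1 match, which was present in 0.067% of windows. For Csf2 the window stopped at base 54249900, whereas the counted gene starts at 54249667 on the minus strand. The bases between were not searched, so the absence of a match says nothing of them. Il1rn held an AP-1 match at -141 to -135 in one of its promoters, and Il33 a C/EBP match at -85 to -78 and a TATA match at -29 to -24 in one of its own. That Il33 window (chr19:29945590-29945789) lies inside the counted gene, and the Il33 window that adjoins the counted start held no match. Il18 held a TATA match on the opposite strand at -175 to -170. These matches describe the letters of the windows, not bound sites.

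Many cytokine mRNAs carry AU-rich elements, runs of the pentamer ATTTA in the 3′ untranslated region that decay factors recognise. The stretch of at most 30 bases with the most pentamers is shown for Csf2, Csf3 and Il1b, the members with the most pentamers per kb, and for Il1a as the neighbour of Il1b, with the pentamers in capitals (build GRCm38, mRNA strand).
Csf2, chr11:54247329-54247358, minus strand: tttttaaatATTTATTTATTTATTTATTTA
Il1b, chr2:129364808-129364837, minus strand: caaccacttacctATTTATTTAtgtATTTA
Csf3, chr11:98702984-98703013, plus strand: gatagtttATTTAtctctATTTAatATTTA
Il1a, chr2:129300109-129300138, minus strand: attttatctatgtATTTAtaaatatATTTA

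Csf2 had 9 pentamers in 317 bases of 3′ untranslated region (28.4 per kb), of which 5 stood in one unbroken series, and 4 copies of the nonamer TTATTTATT. Csf3 (8.97 pentamers per kb) and Il1b (8.71 per kb) followed, then Il18 (2.99 per kb, a single copy), Tslp (2.92 per kb), Il1a (2.72 per kb), Lif (2.2 per kb), Csf1 (1.89 per kb) and Il33 (1.79 per kb), and Il1rn had none. Lif held 2 nonamers and the other members except Csf2 held none. Over 10747 tested genes the median was 1.35 pentamers per kb and 8.64% had a nonamer.

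Of the IL-1 family ligands, Il1a, Il1b and Il18 were higher in METTL7A1 than in mock cells, by 9.43-fold for Il1a, and Il33 did not differ detectably. All fold changes come from edgeR's quasi-likelihood test over 13166 genes with at least 1 cpm in at least 3 libraries, with Benjamini-Hochberg adjustment, and a gene was called at an adjusted p under 0.05. In that test 7 of the 8 members above the filter were called, all 7 higher, against 21.1% of all tested genes called higher and 21% called lower, from which nothing is read since the members were picked with these values known. The median log2 fold change was 1.22 over the 8 tested members and -0.03 over all tested genes. At the thresholds of the study (adjusted p under 0.01 and a log2 fold change over 1.5), 3 members passed upward (Il1a, Il18 and Tslp), beside 1.61% of all tested genes.

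Il1a (chr2:129299610-129309972, minus strand) stood at 69.2, 72.9 and 66.3 cpm in mock libraries 1 to 3 and at 620, 671 and 675 cpm in METTL7A1 libraries 1 to 3. The groups were far apart, and the coefficient of variation between replicates was 4.78% in mock and 4.66% in METTL7A1. The mean went from 69.5 ± 3.32 to 655 ± 30.6 cpm (SD, n = 3), a log2 difference of 3.24 (SE 0.08, 95% interval 3.05 to 3.42, edgeR adjusted p = 1.35e-09). Only 26 tested genes had a larger log2 rise, and 1 gene had a smaller p. Ranked among all tested genes by mean cpm, without regard to exon length, Il1a moved from percentile 78.6 in mock to percentile 99.3 in METTL7A1 cells.

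Il1b (chr2:129364570-129371139, minus strand), whose start lies 61.2 kb from that of Il1a, was scarce. It had 13, 18 and 17 counts in the mock libraries and 29, 48 and 43 in the METTL7A1 libraries, or 0.711, 0.743 and 0.684 against 1.56, 1.63 and 1.74 cpm. No mock library reached 1 cpm, so Il1b passed the filter through the METTL7A1 libraries alone and had to differ to be tested. Its log2 fold change was 1.20 (SE 0.24, 95% interval 0.68 to 1.72, edgeR adjusted p = 0.00196). The ratio of Il1a to Il1b counts within a library, which needs no scaling, was 97.4, 98.2 and 96.9 in mock and 397, 413 and 387 in METTL7A1 cells, a difference of 2.03 on the log2 scale, given as a description.

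Il18 (chr9:50575273-50581837, plus strand) was nearly absent from mock cells, with 1, 0 and 4 counts, and had 31, 58 and 47 counts in METTL7A1 libraries 1 to 3. Its levels were 0.0547, 0 and 0.161 cpm in mock and 1.67, 1.96 and 1.91 cpm in METTL7A1 cells, so it too was tested only because of the METTL7A1 libraries. The fitted log2 difference of 4.55 (SE 0.49, 95% interval 3.48 to 5.62, edgeR adjusted p = 3.51e-05) rests on few mock counts. Pooled over libraries and scaled for depth, the ratio of 136 to 5 counts was 25.2 (95% interval 10.5 to 78.8, for counting error only). The exons that the table counts for Il18 begin 20.6 kb downstream of its RefSeq start, so reads from upstream exons, if any, were not in these counts.

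Il33 (chr19:29925114-29960718, plus strand), the nuclear alarmin, had 7, 9 and 8 counts in mock and 3, 11 and 6 in METTL7A1 libraries, below the filter in all 6. The groups overlapped, and the pooled ratio was 0.772 (95% interval 0.404 to 1.46), so a difference was not detectable at this depth. Il1rn (chr2:24336853-24351494, plus strand), the antagonist, had 0, 1 and 0 counts in mock and 2, 7 and 5 in METTL7A1 libraries. Only 2 METTL7A1 libraries exceeded the floor of 3 counts, equal to 0.102 to 0.164 cpm across libraries. The pooled ratio of 14 to 1 counts was 13 (95% interval 1.97 to 548), and an edgeR fit without the filter, over 28601 genes, gave a log2 fold change of 3.31 with an adjusted p of 0.0228. That fit gave Il1a an edgeR adjusted p of 5.42e-208, against 1.35e-09 with the filter. Its p values are therefore not comparable with the others given here. Because Il1rn held under 10 counts in every library, no agonist to antagonist ratio was tested. Nearest to the limit of 1 cpm among the members were Il1b, at 1.56 to 1.74 cpm in METTL7A1 and 0.684 to 0.743 cpm in mock libraries, and Il18 in METTL7A1 libraries, and of the members left untested Il33 had the higher level.

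Among the other ligands, Tslp and Csf2 rose, Csf1 and Lif rose slightly, and Csf3 was not called. Tslp (chr18:32815383-32819799, plus strand) had 184, 266 and 240 counts in mock and 1533, 2375 and 1872 in METTL7A1 libraries, and the groups did not overlap. It went from 10.2 ± 0.675 to 79.6 ± 3.41 cpm (SD, n = 3), a fold change of 7.77 (log2 2.96, SE 0.08, 95% interval 2.78 to 3.14, edgeR adjusted p = 2.07e-09), and 34 tested genes rose more.

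The 3 colony-stimulating factors each behaved differently. Csf2 (chr11:54247271-54249667, minus strand), the factor of granulocytes and macrophages, had 53, 72 and 82 counts in mock and 126, 250 and 159 in METTL7A1 libraries. Its mean rose from 3.06 ± 0.215 to 7.23 ± 1.08 cpm (SD, n = 3), a log2 difference of 1.24 (SE 0.16, 95% interval 0.89 to 1.6, edgeR adjusted p = 0.000138). Csf1 (chr3:107741048-107760469, minus strand), the macrophage factor, was abundant in both groups, with 6069, 8036 and 7928 counts in mock and 6898, 11843 and 10452 in METTL7A1 libraries. It was higher by 1.22-fold in METTL7A1 cells (327 ± 7.26 against 399 ± 26.1 cpm, SD, n = 3), with a log2 difference of 0.28 (SE 0.08, edgeR adjusted p = 0.0122). That call depended on single libraries: without METTL7A1 replicate 2 its edgeR adjusted p was 0.0581, and without METTL7A1 replicate 3 it was 0.0504 with the filter reapplied and 0.0484 with the tested genes kept.

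Csf3 (chr11:98701263-98703629, plus strand), the granulocyte factor, stood at 120, 118 and 106 cpm in mock and at 99.5, 99.1 and 104 cpm in METTL7A1 libraries. It was the only tested member with a negative estimate, -0.18 on the log2 scale (SE 0.07, 95% interval -0.34 to -0.03, edgeR adjusted p = 0.0605). Although the libraries of the groups did not overlap, the call was absent with all libraries and present without mock replicate 3 (-0.23, edgeR adjusted p = 0.0171). Lif (chr11:4257557-4272514, plus strand) had 2495, 3063 and 3097 counts in mock and 2958, 4737 and 3915 in METTL7A1 libraries, and rose from 129 ± 6.33 to 160 ± 0.819 cpm (SD, n = 3; log2 0.31, SE 0.07, edgeR adjusted p = 0.00388). In 9 of the 10 members the 3 libraries of one group lay wholly apart from those of the other, and of all tested genes 51.6% did so. The 9 include Il1rn, which was not tested. They also include Il1b and Il18, which passed the filter through the METTL7A1 libraries alone, and nothing is read from this count.

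**Figure D1:**
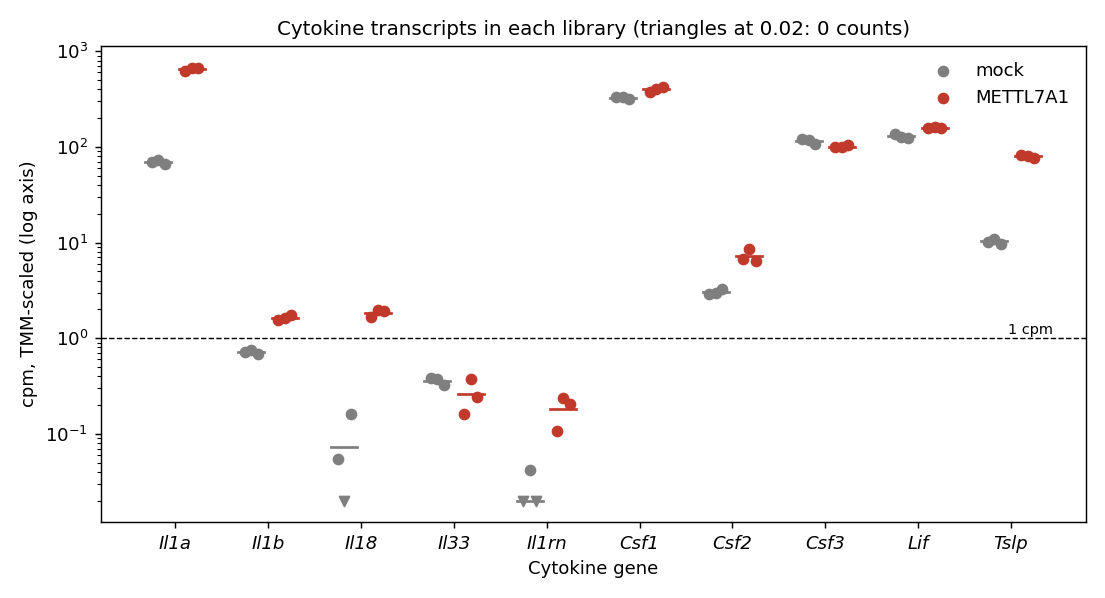
Level of each cytokine transcript in cpm (log axis, TMM-scaled) in the 3 mock (grey) and 3 METTL7A1 (red) libraries; points are libraries, short lines are means, triangles mark 0 counts and the dashed line is the filter of 1 cpm. Il1a and Tslp are widely separated, Il33 overlaps between the groups, and Il1b and Il18 lie below the line in mock libraries only.

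Per kilobase of exon, which allows genes to be compared, the order of the cytokines differed between the groups. In mock cells it ran from Csf3 (81.1 ± 5.58 cpm per kb) through Csf1 (69.4 ± 1.54), Il1a (35.2 ± 1.68), Lif (31.9 ± 1.56), Tslp (9.03 ± 0.596), Csf2 (3.82 ± 0.268) and Il1b (0.525 ± 0.0216) to Il33 (0.138 ± 0.0124), Il18 (0.101 ± 0.115) and Il1rn (0.00508 ± 0.0088). Il1a and Lif overlapped in range, and Il18 overlapped both Il33 and Il1rn, so the order of these neighbours was not resolved. In METTL7A1 cells Il1a led with 332 ± 15.5 cpm per kb, above Csf1 (84.5 ± 5.53), Csf3 (71.4 ± 1.98), Tslp (70.3 ± 3.01), Lif (39.4 ± 0.202), Csf2 (9.04 ± 1.35), Il18 (2.59 ± 0.218), Il1b (1.21 ± 0.0678), Il33 (0.0994 ± 0.0408) and Il1rn (0.0674 ± 0.0247). There Csf3 and Tslp overlapped, and so did Il33 and Il1rn. The sum over the 10 genes was 220 to 237 cpm per kb in mock and 588 to 624 in METTL7A1 libraries, and Il1a made up 14.8% to 15.7% of it in mock and 53.5% to 54.8% in METTL7A1 libraries.

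**Figure D2:**
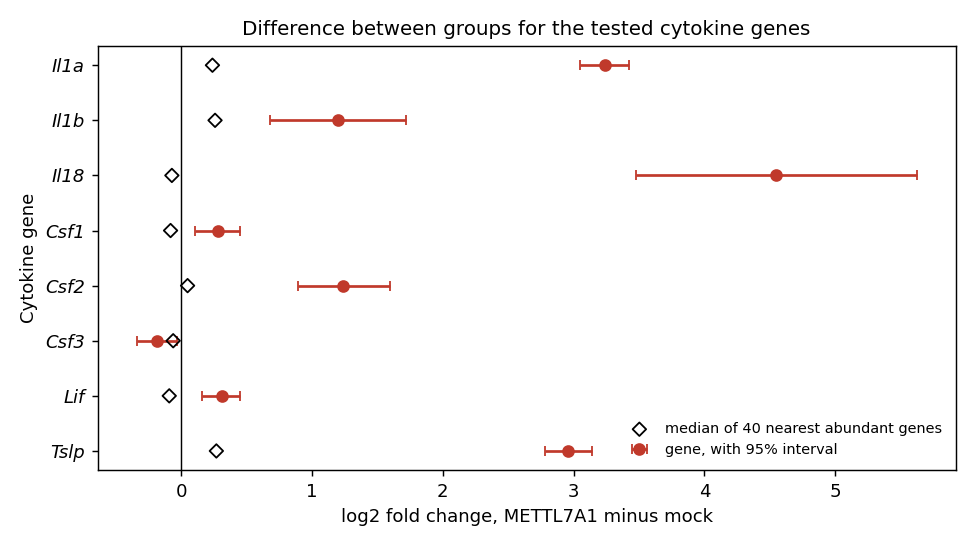
Difference between METTL7A1 and mock cells (log2 fold change, edgeR, 3 libraries a group) for the 8 tested cytokine genes; red points with bars are the gene and its 95% interval, open diamonds the median of its 40 nearest abundant neighbours on the chromosome. Il18 has the largest estimate (4.55) and the widest interval, and the medians of the neighbours lie between -0.09 and 0.27.

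The genes around each member were measured in the same libraries. Over the 40 nearest abundant genes on the chromosome the median log2 difference was 0.24 for Il1a, 0.26 for Il1b, 0.27 for Tslp, 0.05 for Csf2, -0.06 for Csf3, -0.07 for Il18, -0.08 for Csf1 and -0.09 for Lif. Within 2 Mb on each side of Il1a, 57 genes besides Il1a and Il1b were tested. Of these, 26 were called higher and 2 lower (of all tested genes, 21.1% and 21%), with a median of 0.20 and a range of -1.18 to 2.80. They include Gm14023, whose exons overlap those of Il1a and which sets the maximum of 2.80, and Il1bos, across Il1b (2.38). Ckap2l, which ends 2.4 kb from Il1a, differed by 0.25 (SE 0.08, edgeR adjusted p = 0.0262), and Sirpa, the next tested gene beyond Il1b and Il1bos, by 1.26 (SE 0.13, edgeR adjusted p = 3.23e-05). Near Tslp, Wdr36 (17.4 kb away) differed by 0.23 (SE 0.08, edgeR adjusted p = 0.0296) and Camk4 (119.2 kb away) by 1.49 (SE 0.23, edgeR adjusted p = 0.000414). The nearest tested genes on the 2 sides of Csf2 were Gm12221 (log2 3.59, SE 0.24) and Acsl6 (log2 -2.37, SE 0.12). With the neighbour median taken out of the fit, 7 members and 4147 genes in all were called, against 7 and 5537 in the main fit. The 7 include Il1b and Il18, which entered the test through the METTL7A1 libraries alone, and nothing is read from this count. The part of the chromosome region in the results was not tested.

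Exons of Gm14023, a predicted gene on the plus strand, share 222 bases with those of Il1a, 11.2% of Il1a and 12.5% of Gm14023. Gm14023 had 32, 16 and 29 counts in mock and 132, 258 and 208 in METTL7A1 libraries, a log2 difference of 2.80 (SE 0.26, edgeR adjusted p = 1.18e-05). Its counts equalled 0.905% to 2.53% of those of Il1a in mock and 1.15% to 1.30% in METTL7A1 libraries. The libraries were stranded, and AY036118, which lies inside Gm42418 on the opposite strand, had the higher count of the pair in 6 of 6 libraries, which can occur only if reads were assigned by strand. How much of the Gm14023 signal came from Il1a reads on the wrong strand was not tested. Il1bos, on the opposite strand across Il1b but with no shared exon base, rose as well, from 13, 11 and 33 to 94, 110 and 111 counts (log2 2.38, SE 0.31, edgeR adjusted p = 0.000142). Gm12223, antisense to Csf2 over 96 exon bases, had 3, 2 and 6 counts in mock and 22, 24 and 36 in METTL7A1 libraries and was under the filter.

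**Figure D3:**
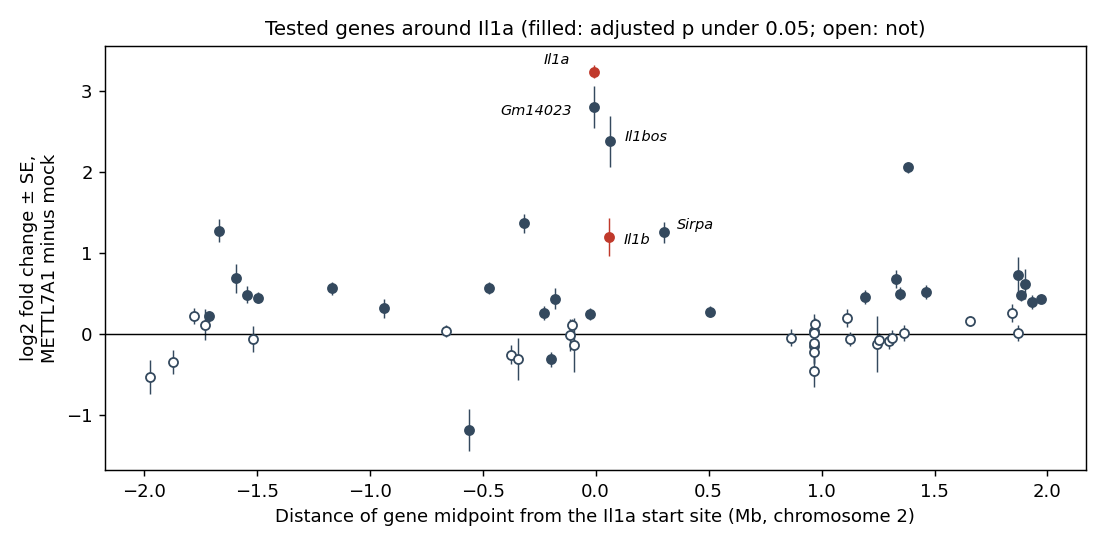
Log2 fold change ± SE (METTL7A1 minus mock, 3 libraries a group) of the tested genes within 2 Mb of Il1a, by distance of the gene midpoint from the Il1a start; red points are Il1a and Il1b, filled points have an adjusted p under 0.05 and open points do not. Il1a, Gm14023 and Il1bos stand highest, between 2.38 and 3.24, above a region whose median is 0.20.

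The nearest patterns to that of Il1a over the 6 libraries (Pearson r of log2 cpm, pseudocount 0.5 cpm) were those of Zfyve28 (r = 0.9996), Mettl7a1 (0.9993), Oasl1 (0.9991), Ptpn13 (0.999) and Tslp (0.9989), among 248 genes with r over 0.99. Oasl1 rose by 2.38 on the log2 scale and Ptpn13 by 0.66. For Csf1, the nearest were Tvp23b (0.9988), Rab3ip (0.9987), Hbegf (0.9973), Bcr (0.996) and Xrcc6bp1 (0.9956), among 40 genes over 0.99. All points come from the same 2 groups, so any gene that differs between the groups with little spread scores high.

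The receptors of these cytokines were measured in the same cells, and both chains of the IL-1 receptor were present whereas those of GM-CSF and G-CSF were at or near 0. Of 11 IL-1 family receptors and decoys, 6 were tested and 4 were called, all higher, beside 21.1% of all tested genes called higher and 21% lower. Il1r1, the signalling receptor of IL-1α and IL-1β, went from 6.20 ± 0.628 to 9.51 ± 1.18 cpm (SD, n = 3; log2 0.61, SE 0.14, edgeR adjusted p = 0.00461), and Il1rap, the shared accessory chain, from 27.3 ± 1.21 to 36.6 ± 2.06 cpm (log2 0.42, SE 0.08, edgeR adjusted p = 0.00134). The decoy Il1r2 had at most 8 counts in any library. Il18rap, the accessory chain for IL-18, rose from 21.9 ± 1.77 to 54.3 ± 1.33 cpm (log2 1.31, SE 0.08, edgeR adjusted p = 6.23e-07), whereas Il18r1, the chain that binds IL-18, had at most 1 count. Il18bp, the secreted inhibitor of IL-18, was not called (log2 -0.25, SE 0.19). Il1rl1, the receptor of IL-33, had 3, 13 and 16 counts in mock and 19, 30 and 25 in METTL7A1 libraries, passed the filter through the METTL7A1 libraries alone, and its call (log2 1.11, SE 0.37, edgeR adjusted p = 0.0311) was kept under 7 of the 16 other settings that tested it, with adjusted p from 0.0105 to 0.0927. Of 5 further IL-1 family ligands none was tested, and Il1f6 had the most counts, 0, 0 and 1 in mock and 4, 10 and 10 in METTL7A1 libraries.

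Of 9 receptor chains for CSFs, LIF and TSLP, 4 were tested, with 1 called higher and 1 lower (of all tested genes, 21.1% and 21%). Csf1r, the receptor of M-CSF and also a leukocyte marker, had 18, 20 and 12 counts in mock and 46, 73 and 56 in METTL7A1 libraries (log2 1.68, SE 0.27, edgeR adjusted p = 0.000506). It passed the filter through the METTL7A1 libraries only. Lifr, the ligand-binding chain for LIF, fell from 3.84 ± 0.341 to 1.67 ± 0.509 cpm (SD, n = 3), a log2 difference of -1.17 (SE 0.23, edgeR adjusted p = 0.00195). Il6st, which encodes gp130, was abundant at 205 ± 7.75 and 196 ± 10.4 cpm and was not called (log2 -0.06, 95% interval -0.22 to 0.10). Csf2ra and Il7r were at 0 in all libraries, where the floor of 3 counts is at most 0.164 cpm (mock replicate 1). Csf3r had 1 count in all, and Csf2rb and Csf2rb2 had at most 4 counts in a library. Crlf2, which binds TSLP, stood at 8.46 ± 0.958 and 6.70 ± 0.804 cpm (log2 -0.34, SE 0.14, edgeR adjusted p = 0.0748).

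Of 22 genes of IL-1 maturation and signalling, 20 were tested, of which 10 were called higher and 2 lower (of all tested genes, 21.1% and 21%). Casp1, the protease that matures IL-1β and IL-18, went from 27, 39 and 26 counts in mock to 5, 11 and 12 in METTL7A1 libraries (log2 -1.82, SE 0.32, edgeR adjusted p = 0.000975), and was above the filter through the mock libraries only. Its adaptor Pycard had at most 11 counts. Gsdmd, the pore former through which mature IL-1β leaves the cell, rose 2.00-fold (7.30 ± 0.786 to 14.6 ± 1.34 cpm, SD, n = 3; log2 1.00, SE 0.12, edgeR adjusted p = 8.85e-05). Irak2, of the IL-1 receptor-associated kinase family, rose by 0.93 (SE 0.11, edgeR adjusted p = 7.97e-05), S100a13, a partner in IL-1α export, by 1.29 (SE 0.19, edgeR adjusted p = 0.000348) and Tab3, an adaptor of the TAK1 kinase, by 0.49 (SE 0.07, edgeR adjusted p = 0.000271). Nlrp3, the inflammasome sensor, had 7 to 12 counts in mock and 22 to 38 in METTL7A1 libraries, the only ones at 1 cpm (log2 1.40, SE 0.28, edgeR adjusted p = 0.00222). Myd88, the adaptor of the receptor, was not called (log2 -0.14, SE 0.11).

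Of 12 genes of the JAK-STAT arm, through which the receptors of GM-CSF, G-CSF, LIF and TSLP signal, all were tested, with 5 called higher and 1 lower (of all tested genes, 21.1% and 21%). Socs2, a feedback inhibitor, rose from 3.16 ± 0.472 to 9.67 ± 1.33 cpm (SD, n = 3; log2 1.61, SE 0.16, edgeR adjusted p = 2.45e-05) and Stat5a from 6.27 ± 0.670 to 10.5 ± 0.338 cpm (log2 0.75, SE 0.12, edgeR adjusted p = 0.000621). Tyk2 rose by 0.44 (SE 0.10, edgeR adjusted p = 0.00359). The calls of Jak3 (0.31), Socs3 (0.32) and Socs1 (-0.60) were kept under only 11, 11 and 12 of 20 other settings. Each was lost, among others, without METTL7A1 replicate 2 (edgeR adjusted p = 0.137, 0.106 and 0.0788). Of 18 related cytokines, 8 were tested, 1 was higher and 4 were lower (of all tested genes, 21.1% and 21%). Clcf1, which also signals through gp130, fell by 0.89 (SE 0.08, edgeR adjusted p = 8.36e-06), Il34, another ligand of CSF1R, by 0.58 (SE 0.09, edgeR adjusted p = 0.000298), Kitl by 0.64 (SE 0.09, edgeR adjusted p = 0.000169) and Il7 by 0.83 (SE 0.17, edgeR adjusted p = 0.0024). Flt3l rose by 0.68 (SE 0.18, edgeR adjusted p = 0.0102). Il6 had at most 6 counts.

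Among 14 genes of cytokine mRNA decay, 2 were called higher and 3 lower (of all tested genes, 21.1% and 21%). Zfp36l1, which binds AU-rich elements, fell from 39.5 ± 4.28 to 26.1 ± 1.47 cpm (SD, n = 3; log2 -0.60, SE 0.09, edgeR adjusted p = 0.000432), and Zfp36, the best known of these decay factors, was not called (log2 -0.23, SE 0.13, edgeR adjusted p = 0.162). The neighbours of Zfp36l1 were lower as well (median -0.43), and its call was lost with the neighbour offset (edgeR adjusted p = 0.194). Khsrp (log2 -0.28, SE 0.07) and Rc3h2 (log2 -0.33, SE 0.07) were lower, and Zc3h12a, which encodes the nuclease Regnase-1, was higher (log2 0.45, SE 0.08), as was Cnot7 (log2 0.41, SE 0.07).

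Of 20 transcription factors known at cytokine promoters, 19 were tested, with 6 called higher and 8 lower (of all tested genes, 21.1% and 21%). Atf3, a stress factor of the AP-1 relatives, rose most, from 9.09 ± 0.861 to 32.0 ± 1.38 cpm (SD, n = 3; log2 1.82, SE 0.10, edgeR adjusted p = 2.32e-07), followed by Egr1 (log2 1.00, SE 0.13) and Ets2 (log2 0.62, SE 0.08). Nfkb2 fell from 246 ± 20.0 to 131 ± 2.22 cpm (SD, n = 3; log2 -0.91, SE 0.08, edgeR adjusted p = 7.61e-06), and Jun fell by 0.49 (SE 0.09, edgeR adjusted p = 0.000902). Rela, the main activating NF-kB subunit, was not called (log2 -0.05, 95% interval -0.22 to 0.12). Hif1a was lower (log2 -0.61, SE 0.08), but its neighbours had a median of -0.47 and its call was lost with the neighbour offset (edgeR adjusted p = 0.209). Over the 8 lists of 111 genes, 83 were tested, of which 29 were called higher and 19 lower, with a median log2 fold change of 0.03 (of all tested genes, 21.1% were higher and 21% lower, with a median of -0.03). The lists were chosen with these results known, and nothing is read from their counts.

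**Figure D4:**
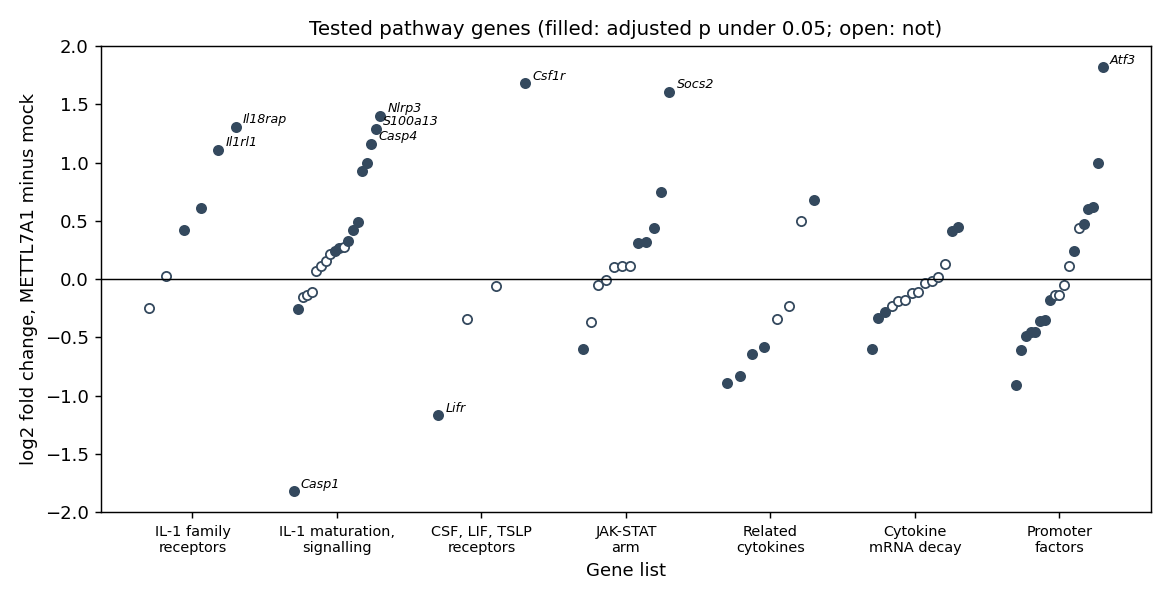
Log2 fold change (METTL7A1 minus mock, edgeR, 3 libraries a group) of each tested gene in 7 lists of receptors, signalling genes, related cytokines, decay factors and promoter factors; filled points have an adjusted p under 0.05, open points do not, and called genes beyond 1 in either direction are named. Atf3 (1.82), Csf1r (1.68) and Socs2 (1.61) lie highest and Casp1 (-1.82) lowest.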

How the data were processed

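Total RNA of 4T1 cells was sequenced from 3 METTL7A1 and 3 mock libraries with a stranded kit that removes ribosomal RNA, and groups were taken from the sample titles. The authors trimmed reads with BBDuk, aligned them to mm10 (GRCm38) with STAR 2.5.3a and counted reads per gene with featureCounts (versions from the submitters' processing notes), and deposited raw counts without normalization. How strand and reads mapping to several places were treated was not given in the sources used here. Nothing in these sources says that the replicates came from separate transfections, so p values measure the spread between these libraries.

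The analysis used edgeR 4.0.16 in R 4.3.3. A gene was kept where 3 or more libraries reached 1 cpm (13166 of 48587), libraries were scaled by TMM and groups compared by the quasi-likelihood test without covariate, with Benjamini-Hochberg adjustment over all tested genes. The SE was the log2 fold change divided by the square root of F. Totals of 18386780 to 28459338 counts put 3 counts, the floor, at 0.102 to 0.164 cpm. Intervals of pooled ratios cover counting error only. The cytokines and the gene lists were chosen with earlier results of these data known, and no list was tested as a set. A marker of the leukocyte list is not reported here. From each list the text names at most 6 called genes with the smallest p and receptor chains of the cytokines. Il1bos, Ckap2l, Sirpa, Wdr36, Camk4, Gm12221, Acsl6, Pycard, Myd88, Il6, Il1f6, Il18bp, Zfp36, Rela, AY036118 and Gm42418 were named after their values were seen. Promoters came from RefSeq and 3′ untranslated regions from GENCODE M21. The test was tried on simulated data. Alternatives were RLE and upper quartile scaling, other filters, a 1.5-fold threshold on the linear scale, DESeq2 1.42.0, limma voom (limma 3.58.1), replicate number as a block, an offset for chromosome neighbours and omission of each library.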

Additional observations from a re-analysis of the deposited data

How the results depend on the processing

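Under 20 other settings, 147 of 153 values of the 8 tested cytokines kept their direction and side of the threshold, and none changed direction. Il1a, Tslp, Csf2 and Lif were called under all of them. Requiring 10 or more counts per library removed Il18, and omission of any METTL7A1 library with the filter reapplied removed Il1b and Il18, because they reach 1 cpm in the METTL7A1 libraries alone. The number of cytokines called, 7, ranged from 4 (without METTL7A1 replicate 2 or 3) to 8 over omissions of a library. Over the same omissions the number of all genes called, 5537, ranged from 3761 to 5865. Csf1 (0.28) was not called without METTL7A1 replicate 2 (0.28, and 0.27 with the tested genes kept) or, with the filter reapplied, replicate 3 (0.24; called at 0.23 with the tested genes kept), with a range of 0.23 to 0.34 over omissions. Csf3 was called with upper quartile scaling (-0.18, edgeR adjusted p = 0.0386) and without mock replicate 3 (-0.23), its lowest value over omissions against a highest of -0.13; the cause was not tested. Genes past the study thresholds numbered 326, and 710 without an abundance filter, 205 with 10 or more counts per library and 1749 at 1.5-fold on the linear scale. Changing the filter changes the genes tested, and the linear scale lowers the threshold. What else moved the counts was not tested. A further 1685 values came from 85 genes, the 83 tested pathway genes with Gm14023 and Mettl7a1. Of these values, 1549 stayed on the same side of the threshold, whether called or not. A call was lost in 111 and gained in 24, and 1 reversed: Tab2, -0.26, stood at 0.16 with the neighbour offset. The replicate numbers did not pair the libraries (correlation of deviations -0.16, 0.29 and -0.43 for numbers 1 to 3). With replicate number as a block, Il1a had 3.24, Tslp 2.96, Il18 4.57 and Csf1 0.28, 7 cytokines and 41 pathway genes were called, and 4810 genes in all against 5537. Il33 and Il1rn are limited by depth, as 3 counts equal at least 0.102 cpm in these libraries. The agonist to antagonist ratio could not be tested, since Il1rn held under 10 counts in every library.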
